A study of Mus musculus with 12 samples.

Results

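The comparison described here is the main effect of IM156 on transcript levels in mouse splenic B cells, taken over 6 libraries from mice given IM156 and 6 libraries from mice not given it. All 12 libraries of the series enter it. The libraries with IM156 are the groups IM156 (the compound alone) and ODN+IM156 (the compound together with a CpG oligodeoxynucleotide), and the libraries without it are control (untreated) and ODN (the oligodeoxynucleotide alone), with 3 libraries in each of the 4 groups. Each library was assigned by its treatment label, and an additive model with ODN as a covariate compared IM156 with its absence over both ODN states at once. The libraries of a group are given as experimental replicates, with no number of animals, so that p-values measure the spread between these libraries, which may be technical. Of 23282 rows in the count table, 11857 passed a filter on low counts and were tested.

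All mice were C57BL/6 and 7 weeks old. The sample labels call them wild type, whereas the series text calls them lupus-prone. Mice of the IM156 and ODN+IM156 groups received IM156 at 30 mg/kg into the peritoneum on days 0 and 2. Mice of the ODN+IM156 and ODN groups received 50 µg of the class B CpG-ODN 1826 by the same route on days 1 and 3. Control mice were untreated, and no vehicle is given for any group. Spleens were taken on day 4, which is 2 days after the last IM156 injection, and libraries were made with a kit that reads the 3′ ends of polyadenylated transcripts.

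The series title names IM156 as inhibiting oxidative phosphorylation, the process by which the respiratory chain complexes of the inner mitochondrial membrane pump protons and ATP synthase uses the gradient to make ATP. As background, cells whose mitochondrial ATP supply is limited can activate the kinase AMPK, which restrains growth, and the ATF4 stress response, which raises amino acid synthesis and transport genes. CpG oligodeoxynucleotides activate the endosomal receptor TLR9, which drives B cells into growth, division and cytokine production. Resting splenic B cells divide little, so that genes of DNA replication and mitosis are low in them and high in activated B cells.

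Total counts were 9650775 to 11285692 in the 6 libraries with IM156 and 9891730 to 11532525 in the 6 without it (exact permutation test within ODN states, two-sided p = 0.69). The ribosomal RNA row Rn45s took 4.78% to 8.22% of the counts with IM156 and 1.46% to 9.63% without (p = 0.71 by the same exact permutation test), and its lowest share was that of ODN replicate 2. ODN replicate 3 had 1 count of Xist, which is transcribed from the inactive X chromosome, whereas the other 11 libraries had 9701 to 13011. The Y-linked genes Ddx3y, Eif2s3y, Kdm5d and Uty each had 0 counts in ODN replicate 3 and 0 or 1 in every other library. ODN replicate 1 had the highest levels of cell division genes and of neutrophil markers, and IM156 replicate 3 had the lowest levels of erythroid genes of its ODN state. The B-cell gene Cd79b (1287 to 1498 counts-per-million units, CPM, with IM156 and 1308 to 1663 CPM without) was high in every library, whereas the T-cell gene Cd3e stayed at 0.377 CPM or less with IM156 and 0.398 CPM or less without. CPM values were scaled with TMM factors, which set the libraries to a common level from the bulk of the genes.

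No gene passed an adjusted p below 0.05 for the IM156 main effect in edgeR's quasi-likelihood test with Benjamini-Hochberg adjustment (0 of 11857, 0%). At an unadjusted p below 0.05 there were 831 genes (7.01%), of which 322 were higher with IM156 (2.72% of the genes tested) and 509 lower (4.29%). Scaled by library totals alone, that split was 514 higher and 318 lower, and the median gene was at 0.0303 on the log2 scale. The smallest adjusted p was 0.12, shared by the peptide transporter gene Slc15a2, the signalling adaptor gene Sla and the transcription factor gene Fos. Other tools made calls in the same libraries: DESeq2 called 10 of 10246 genes (0.0976%), and limma voom with quality weights called 3 (0.0253%), Fos, Sla and Fosb. The DESeq2 calls were Sla (adjusted p = 0.000465), Fos (adjusted p = 0.00167), Zfp36, Sik1 and Nrros, which were higher with IM156, and Slc15a2, Map2, C330027C09Rik, Ly6k and Ifnlr1, which were lower. These 10 genes were named after their values were seen. Without the filter on low counts, edgeR called 225 of 17399 genes (1.29%), 49 higher and 176 lower, and 67 of them were on the mitosis and S phase lists. In that fit the prior degrees of freedom were infinite, so that every gene took the spread of the trend alone, against 10.3 with the filter.

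The median log2 fold change over all genes tested was -0.0048, and the standard error of a gene's log2 fold change had a median of 0.111. The 95% interval of the median gene therefore reached 0.232 to either side on the log2 scale. A tested gene had a median of 258 counts per library, and replicates of a group differed by 5.35 to 72.6 times counting error (chi-square per degree of freedom). The pairs of ODN replicate 2 with ODN replicates 1 and 3 gave 69.5 and 72.6, and the other pairs 5.35 to 23.6. ODN replicate 2 had the lowest share of Rn45s, and what that row adds to these values was not tested. In the same additive fit ODN itself called 1255 genes (10.6%), 865 higher and 390 lower. The histogram of p-values shows how far the IM156 main effect and its interaction with ODN stood above an even spread of p-values.

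**Figure D1:**
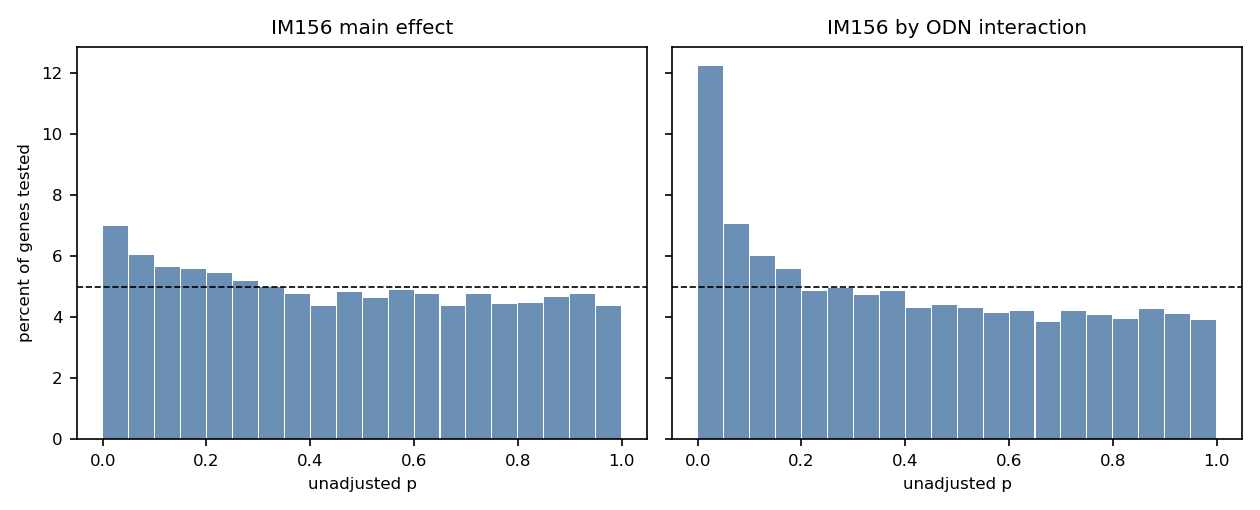
Percent of the 11857 genes tested (vertical axis) by unadjusted p-value (horizontal axis, no unit), for the IM156 main effect and for the interaction of IM156 with ODN. The main effect had 831 genes (7.01%) below 0.05 and the interaction had 1453 (12.3%), and edgeR with the filter on low counts called no gene for either.

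The 12 genes of smallest p in each direction were taken among genes averaging 5 CPM or more. They also had to have the same sign of effect in both ODN states, as 46.1% of all genes did. Among the 12 positive genes, several were immediate-early genes, which are transcribed soon after a signal and without new protein synthesis. The immediate-early genes Fos, Fosb, Zfp36, Egr1 and Dusp1, together with Sla and Sik1, had main effects of 0.31 to 0.78 on the log2 scale. Being higher with IM156 in both ODN states was a condition of their choice. None passed the adjusted threshold in edgeR, whereas DESeq2 called Fos, Zfp36, Sla and Sik1 and voom called Fos, Fosb and Sla. In 5 of these 7 (Sla, Fos, Zfp36, Sik1 and Egr1) every library with IM156 stood above every library without it within each ODN state. Over all genes, 32 (0.27%) stood apart in this way with higher values in IM156 and 29 (0.245%) with lower values, and scaled by library totals alone these counts were 43 and 16. The other 5 genes of the 12 were Nrros, Zfp1, Chst11, Hmgcs1 and Rest.

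Fos encodes a subunit of the transcription factor AP-1. It had 254, 252 and 232 CPM in IM156 against 164, 184 and 216 CPM in control, and 205, 158 and 172 CPM in ODN+IM156 against 142, 113 and 108 CPM in ODN. All 6 libraries with IM156 were above the libraries without it in their own ODN state, with a log2 fold change of 0.47 (SE 0.0873, adjusted p = 0.12). Its partner in the same family, Fosb, had 229, 217 and 158 CPM in IM156 against 166, 122 and 166 CPM in control, and 217, 129 and 170 CPM in ODN+IM156 against 96.7, 70.0 and 64.9 CPM in ODN. The groups overlapped without ODN and did not overlap with ODN, and the log2 fold change was 0.78 (SE 0.154, adjusted p = 0.197), with 0.41 without ODN and 1.16 with ODN. Egr1, a zinc finger transcription factor, had 54.4, 46.9 and 47.5 CPM in IM156 against 41.4, 45.8 and 44.0 CPM in control, and 66.7, 49.4 and 65.6 CPM in ODN+IM156 against 42.8, 35.7 and 39.8 CPM in ODN. Its log2 fold change was 0.40 (adjusted p = 0.462).

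Zfp36 encodes tristetraprolin, which binds AU-rich elements and hastens the decay of many cytokine and immediate-early transcripts. It had 246, 249 and 233 CPM in IM156 against 204, 219 and 193 CPM in control, and 252, 229 and 233 CPM in ODN+IM156 against 202, 164 and 187 CPM in ODN. The groups did not overlap in either ODN state (log2 fold change 0.31, adjusted p = 0.358). Dusp1, a phosphatase that inactivates MAP kinases, had 119, 118 and 101 CPM in IM156 against 77.7, 91.6 and 84.8 CPM in control, and 55.0, 63.2 and 64.3 CPM in ODN+IM156 against 35.6, 60.7 and 47.6 CPM in ODN. The lowest ODN+IM156 library lay below the highest ODN library (log2 fold change 0.38, adjusted p = 0.526), and Dusp1 overlaps Ergic1 on the opposite strand. Sik1, a kinase related to AMPK, had 55.0, 49.9 and 55.9 CPM in IM156 against 29.8, 39.6 and 43.5 CPM in control, and 33.2, 40.9 and 39.4 CPM in ODN+IM156 against 23.1, 29.1 and 32.3 CPM in ODN. Its log2 fold change was 0.47 (adjusted p = 0.358), and no library without IM156 reached the lowest library with IM156 of its ODN state.

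Sla, whose product is an adaptor that dampens antigen receptor signalling, had 206, 192 and 204 CPM in IM156 against 136, 158 and 167 CPM in control, and 201, 198 and 213 CPM in ODN+IM156 against 156, 176 and 160.4 CPM in ODN. This is a log2 fold change of 0.35 (SE 0.0641, adjusted p = 0.12), with no overlap in either ODN state. Sla lies on chromosome 15 (66780819 to 66831829, GRCm38) within the thyroglobulin gene Tg on the opposite strand, and the strand rule of the counting is not given in the sources used here. Nrros, which limits reactive oxygen species in leukocytes, had log2 fold changes of 0.24 without ODN and 0.37 with ODN, and its groups did not overlap (adjusted p = 0.462). The sulfotransferase gene Chst11 had 17.5, 18.6 and 6.99 CPM in IM156 against 5.47, 2.99 and 4.55 CPM in control, and 6.98, 11.8 and 5.49 CPM in ODN+IM156 against 7.39, 5.32 and 4.31 CPM in ODN. The groups overlapped with ODN, and the log2 fold change of 1.12 (adjusted p = 0.51) was made up of 1.73 without ODN and 0.51 with ODN. Hmgcs1, an enzyme of sterol synthesis, the repressor gene Rest and the zinc finger gene Zfp1 had log2 fold changes of 0.29, 0.30 and 0.50, with adjusted p-values of 0.526, 0.526 and 0.51.

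**Figure D2:**
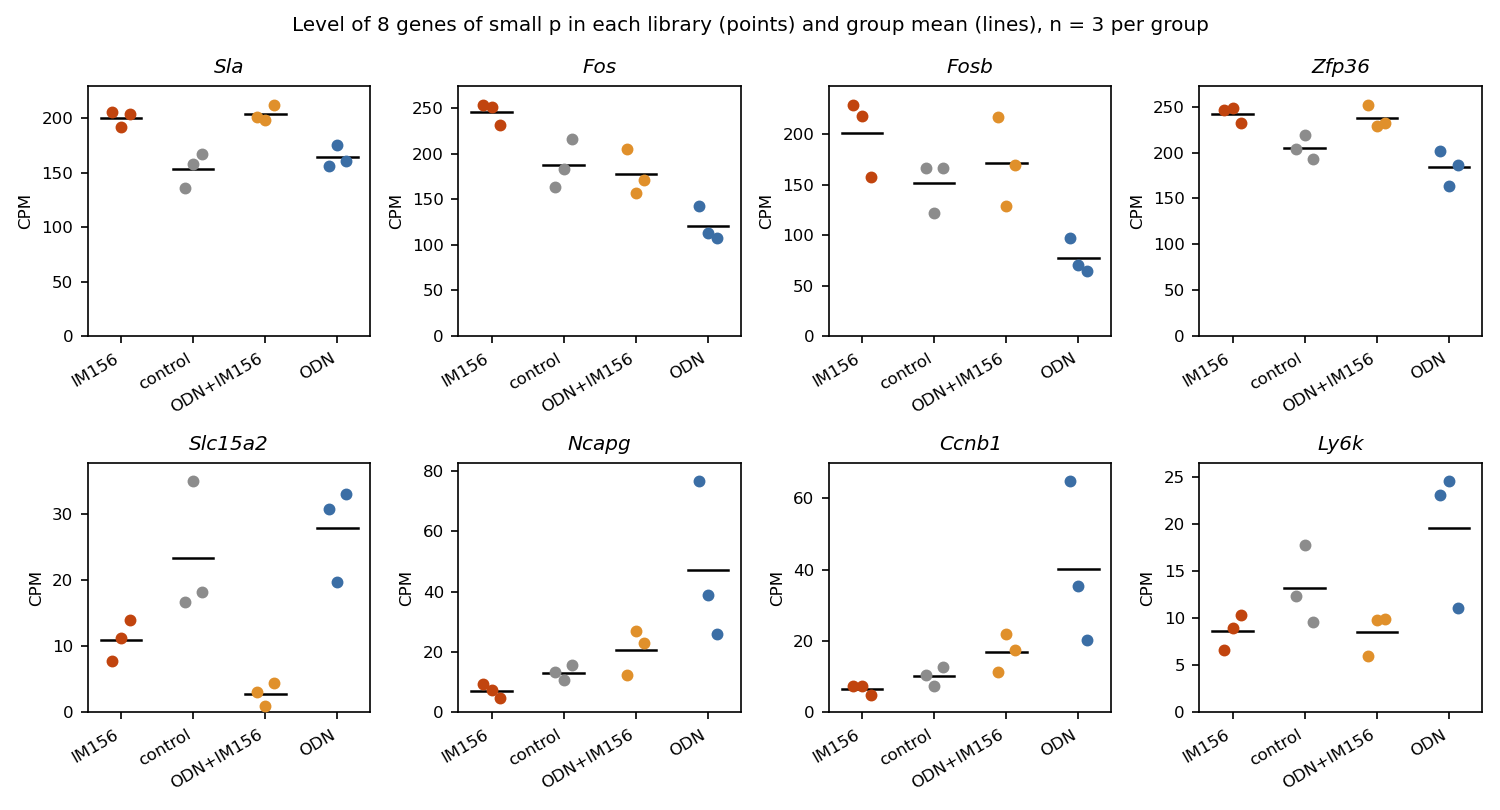
Level of each gene (vertical axis, TMM-scaled CPM, starting at 0) in every library, with 1 point for each of 3 libraries per group and a bar at the group mean. The panels hold genes with the smallest p-values in each direction, and within each ODN state the libraries with IM156 stand left of those without. Sla, Fos, Zfp36 and Slc15a2 do not overlap in either ODN state.

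The list of immediate-early genes had 28 tested members, of which 25 had positive and 3 had negative log2 fold changes, against 48.6% positive over all genes tested. At an unadjusted p below 0.05, 12 were higher, against 2.72% of all genes, and none lower, and none passed adjustment in edgeR's test. Of its members, DESeq2 called Fos and Zfp36, and voom called Fos and Fosb. The median log2 fold change was 0.15, with 0.17 in each ODN state. The list's median was 0.21, 0.18 and 0.07 in IM156 against 0.03, 0.05 and -0.06 in control, and 0.28, 0.16 and 0.16 in ODN+IM156 against 0.03, -0.05 and -0.02 in ODN, each as a log2 difference from the libraries of the same ODN state without IM156. These medians did not overlap in either ODN state. Klf4, a transcription factor that restrains B-cell division, was at 156, 144 and 138 CPM in IM156 against 133, 129 and 175 CPM in control, which overlap. Klf4 was at 151, 103 and 141 CPM in ODN+IM156 against 81.1, 62.8 and 56.7 CPM in ODN, which do not. Junb, another AP-1 subunit, had log2 fold changes of 0.11 without ODN and 0.40 with ODN, and overlaps Prdx2 on the opposite strand.

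Promoter stretches of Fos, Fosb, Zfp36 and Dusp1 are shown because all 4 genes had higher means with IM156 in both ODN states and are known targets of the transcription factors CREB or serum response factor. The stretches are from RefSeq on GRCm38.p6, Fos chr12:85473740-85473889 (plus strand), Fosb chr7:19310046-19310195 (minus strand), Zfp36 chr7:28379229-28379378 (minus strand) and Dusp1 chr17:26508473-26508672 (minus strand), each read 5′ to 3′ along its gene. Capitals mark matches on either strand to TGACG, the core of the cAMP response element, to the full element TGACGTCA, which contains it, and to the CArG box, the serum response factor motif.
Fos: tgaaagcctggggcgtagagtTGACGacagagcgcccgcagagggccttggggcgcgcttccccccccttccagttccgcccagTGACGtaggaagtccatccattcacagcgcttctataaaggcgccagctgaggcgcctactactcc
Fosb: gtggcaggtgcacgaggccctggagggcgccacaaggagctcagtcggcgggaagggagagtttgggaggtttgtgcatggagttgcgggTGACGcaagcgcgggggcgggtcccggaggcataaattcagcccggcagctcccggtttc
Zfp36: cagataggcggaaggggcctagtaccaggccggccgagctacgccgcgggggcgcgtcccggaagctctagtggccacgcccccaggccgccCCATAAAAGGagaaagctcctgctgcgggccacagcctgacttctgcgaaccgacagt
Dusp1: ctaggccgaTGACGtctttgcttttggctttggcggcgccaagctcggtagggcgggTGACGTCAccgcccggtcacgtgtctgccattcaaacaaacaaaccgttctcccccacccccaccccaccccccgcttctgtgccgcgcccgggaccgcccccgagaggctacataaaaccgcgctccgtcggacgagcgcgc
The 28 tested members had 25 windows from 250 bases before to 50 after a RefSeq start, where a gene may have several windows or none. TGACG was in 16 of the 25 (64%), against 31.6% of the windows of all genes tested and 20.8% of all 32851 windows. The full element TGACGTCA was in 8% against 3.16% of the windows of genes tested. The CArG box was in 5 of the 25 (20%), against 1.29% of the windows of genes tested. The motifs were chosen after the values were seen, and a match is a description of the letters and not of a bound site.

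Most genes of mitosis had negative log2 fold changes. Of 63 tested members of the mitosis list, 61 had negative and 2 positive log2 fold changes, 48 were lower at an unadjusted p below 0.05 (against 4.29% of all genes) and none higher. None was called by edgeR, DESeq2 or voom, and edgeR without the filter on low counts called 49, all lower. The median log2 fold change was -0.74, with -0.36 for IM156 against control and -0.98 for ODN+IM156 against ODN. The median ODN effect on the same members, in the same fit, was 1.55 on the log2 scale. In bulk samples such as these, fewer dividing cells and less of these transcripts in each cell cannot be told apart.

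Ncapg, a subunit of the condensin complex that compacts chromosomes, had 9.47, 7.48 and 4.86 CPM in IM156 against 13.3, 10.6 and 15.7 CPM in control, and 12.5, 26.9 and 23.0 CPM in ODN+IM156 against 76.7, 38.9 and 26.02 CPM in ODN. The highest ODN+IM156 library lay above the lowest ODN library (log2 fold change -1.04, adjusted p = 0.442). Ccnb1, which encodes cyclin B1, had 7.38, 7.39 and 4.86 CPM in IM156 against 10.4, 7.53 and 12.7 CPM in control, and 11.2, 21.98 and 17.5 CPM in ODN+IM156 against 64.9, 35.5 and 20.4 CPM in ODN, with a log2 fold change of -0.99 (adjusted p = 0.462). ODN replicate 1 was the highest library for both genes. Tpx2, a spindle assembly factor, had 7.28, 8.23 and 6.74 CPM in IM156 against 16.6, 8.80 and 11.1 CPM in control, and 16.8, 27.3 and 20.6 CPM in ODN+IM156 against 83.7, 34.8 and 23.0 CPM in ODN (log2 fold change -0.95, adjusted p = 0.526). The motor gene Kif4, which overlaps Pdzd11 on the opposite strand, and Cdc20, which activates the anaphase-promoting complex and overlaps Elovl1, had log2 fold changes of -1.14 and -0.86, with adjusted p-values of 0.51 and 0.526. Top2a, Mki67, Plk1 and Ccnb2, all transcribed mainly in G2 and mitosis, had log2 fold changes of -0.84, -0.84, -0.82 and -0.86. Without ODN replicate 1 they were -0.49, -0.46, -0.53 and -0.48, and those of Kif4, Tpx2 and Cdc20 were -0.75, -0.57 and -0.53.

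ODN replicate 1 stood well above the other ODN libraries for the mitosis list. The list's median in single libraries, relative to the libraries without IM156 of the same ODN state, was -0.14, -0.26 and -0.56 in IM156 against 0.10, -0.43 and 0.29 in control, and -1.05, -0.50 and -0.72 in ODN+IM156 against 0.99, -0.12 and -0.84 in ODN. The groups overlapped in both ODN states. Without ODN replicate 1 the list's median main effect was -0.35, without ODN replicates 1 and 3 it was -0.48, and with voom's quality weights it was -0.40. Over the fits that left out any other library it kept to -0.63 or below.

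Promoters of Ncapg and Cdc20 are shown as examples of the mitotic promoter type, which has a CHR element and CCAAT boxes. The CHR is known to hold transcription low outside G2 and mitosis. They are RefSeq stretches on GRCm38.p6, Ncapg chr5:45669725-45669924 (plus strand) and Cdc20 chr4:118437344-118437543 (minus strand), with matches to TTTGAA (the CHR) and to CCAAT in capitals on either strand, so that ATTGG is CCAAT on the other strand.
Ncapg: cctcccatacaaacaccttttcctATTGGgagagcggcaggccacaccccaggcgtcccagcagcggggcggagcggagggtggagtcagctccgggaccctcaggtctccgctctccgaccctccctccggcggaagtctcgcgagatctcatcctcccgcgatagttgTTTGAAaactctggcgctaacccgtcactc
Cdc20: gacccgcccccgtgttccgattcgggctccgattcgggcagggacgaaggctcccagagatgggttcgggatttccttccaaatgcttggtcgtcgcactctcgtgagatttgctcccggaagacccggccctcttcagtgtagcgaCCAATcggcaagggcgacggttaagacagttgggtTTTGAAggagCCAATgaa
The 63 tested members of the mitosis list had 53 windows, where a gene may have several windows or none. TTTGAA was in 40 of the 53 (75.5%), against 12.2% of the windows of genes tested. CCAAT was in 41 of the 53 (77.4%), against 38.1%. These motifs too were chosen after the values were seen.

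The S phase list, with genes of DNA replication, had 57 tested members, of which 55 had negative log2 fold changes and 20 were lower at an unadjusted p below 0.05, against 4.29% of all genes, with none higher. None was called by edgeR, DESeq2 or voom, and edgeR without the filter on low counts called 18, all lower. Its median was -0.27, with -0.08 for IM156 against control and -0.44 for ODN+IM156 against ODN, and was -0.067 without ODN replicate 1. Rrm2, a subunit of ribonucleotide reductase, had 6.18, 7.11 and 5.80 CPM in IM156 against 9.44, 7.62 and 13.9 CPM in control, and 14.6, 25.3 and 23.3 CPM in ODN+IM156 against 89.1, 32.1 and 19.7 CPM in ODN. ODN replicate 3 was below 2 of the 3 ODN+IM156 libraries (log2 fold change -0.96, adjusted p = 0.551). Hells, a chromatin remodeller of replicating cells, had a log2 fold change of -0.55 (adjusted p = 0.561). Without ODN replicate 1 the log2 fold changes of Rrm2 and Hells were -0.49 and -0.30.

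**Figure D3:**
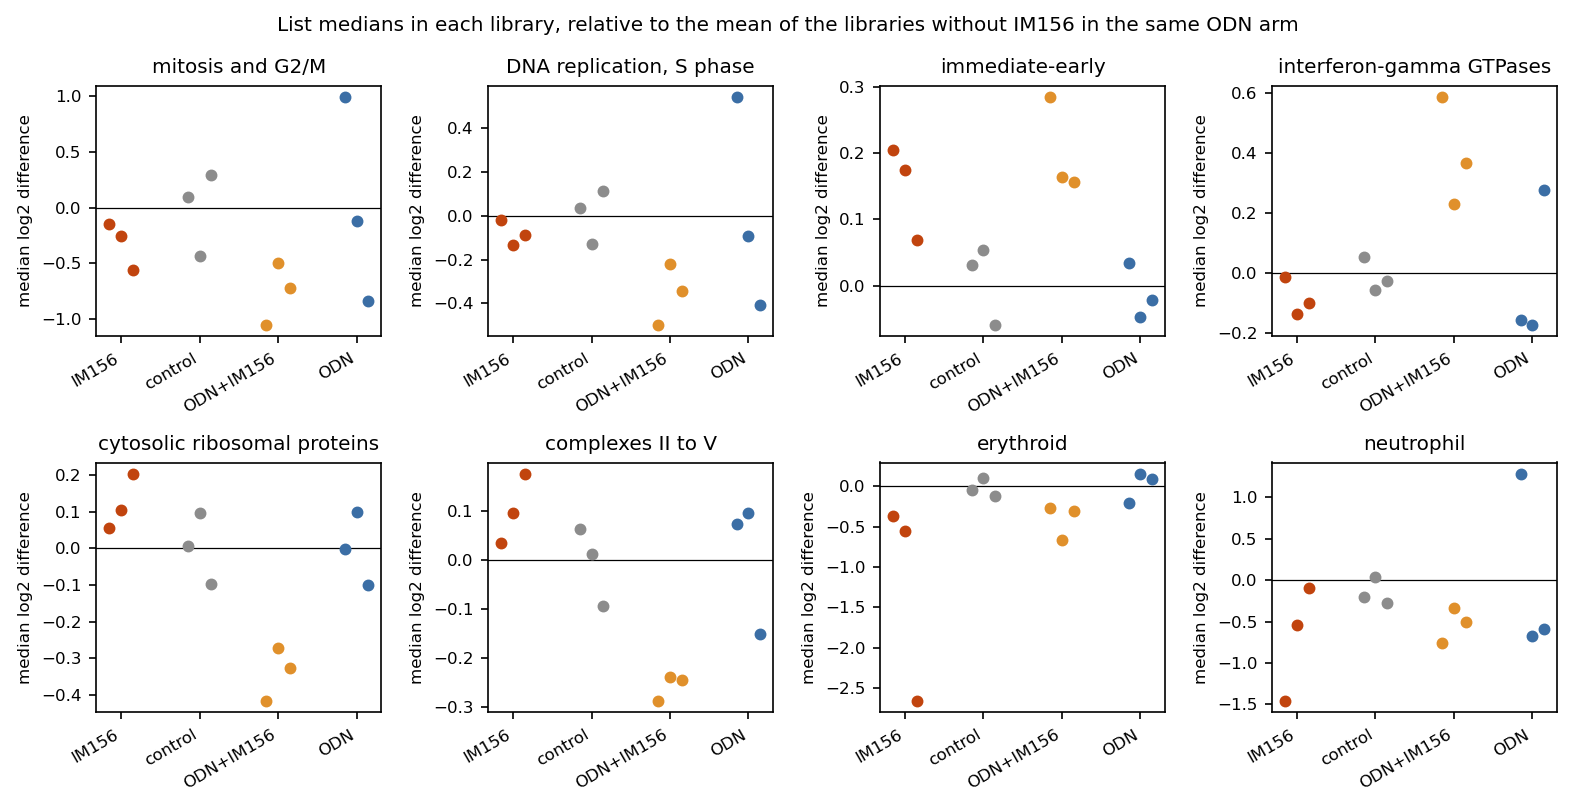
Median over the tested members of each list in every library (vertical axis, log2 difference from the mean of the libraries without IM156 of the same ODN state), with 1 point for each of 3 libraries per group. Immediate-early genes do not overlap between libraries with and without IM156 in either ODN state. Mitosis genes overlap in both, and ODN replicate 1 stands at 0.99.

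The gene with the smallest p-value and the most negative value among those named was Slc15a2, which encodes a proton-coupled transporter of short peptides. Slc15a2 (chromosome 16, 36750177 to 36784962, GRCm38) had 7.78, 11.3 and 14.0 CPM in IM156 against 16.7, 35.02 and 18.2 CPM in control, and 3.11, 0.951 and 4.52 CPM in ODN+IM156 against 30.8, 19.8 and 33.01 CPM in ODN. The groups did not overlap in either ODN state, and all 6 libraries with IM156 were below all 6 without it. The main effect was -2.02 (SE 0.346, adjusted p = 0.12). In a model with 1 mean for each of the 4 groups, the log2 fold change was -1.08 for IM156 against control and -3.24 for ODN+IM156 against ODN, and the difference between them, the interaction, was -2.17 (SE 0.492, adjusted p = 0.154). The mean of both ODN states in that model called 2 genes (0.0169%), Slc15a2 (adjusted p = 0.000473) and Fosb (adjusted p = 0.0367). The additive model gives 1 effect for both states, so that a gene whose effects differ in size keeps that difference in its residual spread.

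The other genes of the 12 with negative values were of mixed function. Ly6k, of the Ly6 family of membrane-anchored proteins, had 6.58, 8.97 and 10.3 CPM in IM156 against 12.3, 17.8 and 9.59 CPM in control, and 5.94, 9.83 and 9.93 CPM in ODN+IM156 against 23.1, 24.6 and 11.1 CPM in ODN, with overlap without ODN and none with it (log2 fold change -0.91, adjusted p = 0.442). Eps8l1, of the Eps8 family of actin regulators, had 18.9, 18.1 and 21.1 CPM in IM156 against 36.9, 37.8 and 46.2 CPM in control, and 17.4, 23.6 and 25.8 CPM in ODN+IM156 against 28.8, 17.3 and 39.5 CPM in ODN. It separated the groups without ODN (log2 fold change -1.05) and overlapped with ODN (-0.35), with a main effect of -0.71 (adjusted p = 0.462). Hsd11b1, which regenerates active glucocorticoid and overlaps Lamb3 on the opposite strand, had a main effect of -0.73 (adjusted p = 0.51). Nmral1 and Lcorl both had a main effect of -0.44 and did not overlap in either ODN state, with adjusted p-values of 0.51 and 0.462. Lcorl meets Ncapg tail to tail on chromosome 5, where the genes overlap on opposite strands, and whether their reads were told apart in the shared stretch depends on the strand rule, which is not known here. C330027C09Rik had a main effect of -0.96 (adjusted p = 0.442).

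Genes of the process that IM156 is described as inhibiting had list medians near 0 in the main effect. Over all genes tested, 51.4% were negative, and 2.72% were higher and 4.29% lower at an unadjusted p below 0.05. Complex I had 37 tested members, 27 with negative and 10 with positive log2 fold changes, 2 lower at an unadjusted p below 0.05 and none higher, and a median of -0.07. Complexes II to V had 41 tested members, 37 negative and 4 positive, 3 lower at an unadjusted p below 0.05, and a median of -0.06. Over the fits that left out 1 library these medians ran from -0.13 (without IM156 replicate 3) to -0.038 (without ODN replicate 1) and from -0.12 (without IM156 replicate 3) to -0.031 (without ODN replicate 2). The medians of the tricarboxylic acid cycle (20 genes), glycolysis (19 genes), the AMPK pathway (22 genes) and the ATF4 stress response (24 genes) were -0.04, 0.03, 0.03 and -0.03, and that of the ATF4 list was 0.0078 when libraries were scaled by their totals. In the ATF4 list, 2 members were higher and 2 lower at an unadjusted p below 0.05. Those higher and of smallest p were Ppp1r15a, which helps to end the translational block of the stress response, at 0.34 (adjusted p = 0.561), and the tryptophan tRNA ligase gene Wars at 0.36 (adjusted p = 0.645). Asns, an ATF4 target that makes asparagine, was at 1.496, 1.21 and 0.597 CPM in IM156 against 1.79, 0.544 and 1.36 CPM in control, and 1.51, 0.317 and 0.532 CPM in ODN+IM156 against 1.25, 1.202 and 1.82 CPM in ODN, with overlapping groups in both ODN states.

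In the AMPK list, Sesn1, a stress-induced inhibitor of mTORC1, had 263, 255 and 225 CPM in IM156 against 118, 231 and 227 CPM in control, and 147, 173 and 171 CPM in ODN+IM156 against 89.1, 152 and 165 CPM in ODN. Its groups overlapped in both ODN states, and its log2 fold change was 0.32 (adjusted p = 0.697), or 0.20 without control replicate 1. Strada, a pseudokinase that activates the AMPK-activating kinase LKB1, had a log2 fold change of -0.22 (adjusted p = 0.705). Nucleolar and ribosome assembly genes had 27 of 32 members positive, 4 higher at an unadjusted p below 0.05 and none lower, against 48.6% positive and 2.72% higher over all genes. Their median was 0.08, and 0.056 without ODN replicate 1 and 0.13 without ODN replicate 3. Sterol and fatty acid synthesis genes (30 tested) had a median of -0.01, or 0.03 scaled by totals. Of them, 3 were higher and 1 lower at an unadjusted p below 0.05, against 2.72% and 4.29% of all genes.

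The main effect averages over ODN states in which several lists lay on opposite sides of 0. Over all 11857 genes, 5934 were positive without ODN and 6067 were negative with ODN. Ribosomal protein genes had a median of 0.14 for IM156 against control, with 76 of 80 positive, and of -0.35 for ODN+IM156 against ODN, with all 80 negative. Of these genes, 73 (91.25%) had a negative interaction at an unadjusted p below 0.05, against 6.86% of all genes tested. EdgeR called none of these interactions, whereas DESeq2 called 49, voom 47 and edgeR without the filter on low counts 40, all negative. Their median main effect was -0.11, and -0.061 without ODN replicate 2. Scaled by library totals, the medians were 0.16 without ODN and -0.30 with ODN. In single libraries the list's median was 0.056, 0.104 and 0.203 in IM156 against 0.005, 0.095 and -0.098 in control, which overlap. It was -0.416, -0.271 and -0.325 in ODN+IM156 against -0.001, 0.099 and -0.099 in ODN, which do not. Rpl35, a protein of the large ribosomal subunit, had 979, 1068 and 1185 CPM in IM156 against 868, 1011 and 834 CPM in control, and 1060, 1205 and 1282 CPM in ODN+IM156 against 1544, 1852 and 1400 CPM in ODN. The groups overlapped without ODN and stood apart with ODN, and the main effect was -0.09 (adjusted p = 0.906).

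Complex I had medians of 0.09 without ODN and -0.24 with ODN. Of its 37 members, 15 had a negative interaction at an unadjusted p below 0.05, against 6.86% of all genes tested. Complexes II to V had 0.09 and -0.28, and 23 of 41 such members. EdgeR called none of either list, whereas DESeq2 called 2 and 9, and voom 2 and 7. In single libraries the medians of both lists overlapped between IM156 and control, and stood apart between ODN+IM156 and ODN. Sdhd, a membrane anchor of succinate dehydrogenase, had 53.4, 54.8 and 62.2 CPM in IM156 against 55.5, 52.8 and 49.1 CPM in control, and 50.3, 58.9 and 48.1 CPM in ODN+IM156 against 75.9, 93.8 and 74.3 CPM in ODN. It overlapped without ODN and stood apart with ODN. Uqcrh, a subunit of complex III, had log2 fold changes of 0.18 without ODN and -0.44 with ODN, and a main effect of -0.13 (adjusted p = 0.828). Sdhd, Uqcrh and Rpl35 were chosen for display after their values were seen.

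Interferon genes lay the other way round. The list of interferon-γ-induced GTPases and partners had medians of -0.12 without ODN and 0.44 with ODN. The list's medians in single libraries overlapped between libraries with and without IM156 in both ODN states. Of its 31 members, 16 had a positive interaction at an unadjusted p below 0.05, against 5.4% of all genes. In the main effect 25 of 31 were positive, 3 were higher at an unadjusted p below 0.05 and none lower, against 48.6% positive and 2.72% higher over all genes. The median was 0.13, and 0.055 to 0.17 when single libraries were left out, with the lowest value without ODN replicate 2. Tgtp2, an interferon-induced GTPase, had 10.9, 12.9 and 12.6 CPM in IM156 against 12.9, 12.1 and 13.4 CPM in control, and 71.0, 44.8 and 60.0 CPM in ODN+IM156 against 25.9, 29.8 and 49.1 CPM in ODN. It overlapped in both ODN states, with a main effect of 0.39 (adjusted p = 0.693). The type I interferon list had medians of -0.20 and 0.11, and its medians in single libraries also overlapped in both ODN states. In this list 19 of 64 members had a positive interaction at an unadjusted p below 0.05. Its members of smallest p were Tor3a, an interferon-induced ATPase of the endoplasmic reticulum, and Usp18, which removes ISG15 from proteins, with main effects of -0.25 and -0.38 (adjusted p-values 0.551 and 0.561). The core of the interferon-stimulated response element, GAAANNGAA on either strand, was in 15 of 28 windows of the interferon-γ list (53.6%) and 30 of 62 of the type I list (48.4%), against 7.42% of the windows of genes tested.

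**Figure D4:**
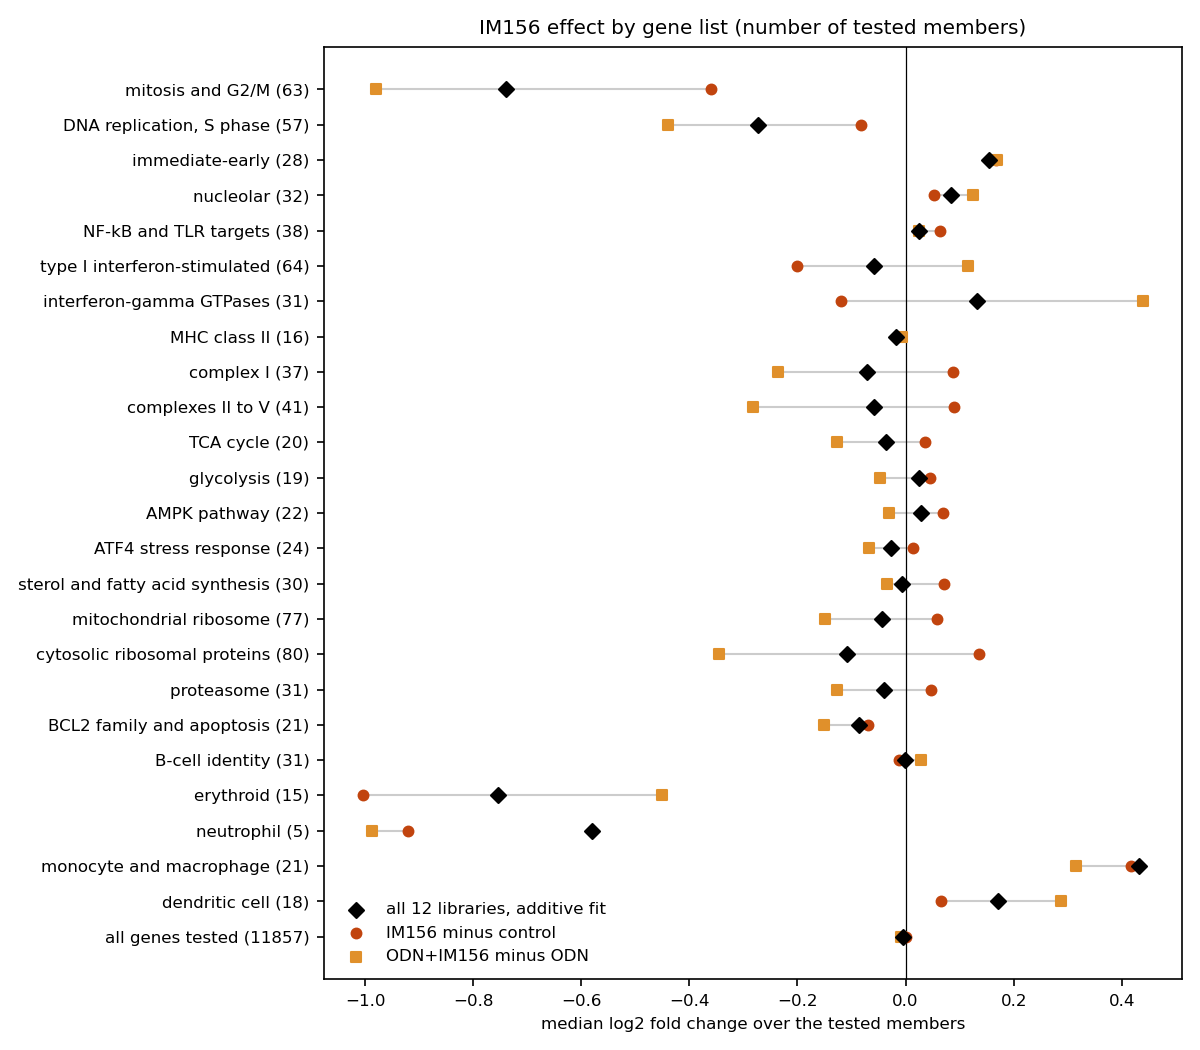
Median log2 fold change over the tested members of each list (horizontal axis, log2), for IM156 against control, for ODN+IM156 against ODN and for the main effect. Immediate-early genes lie right of 0 and mitosis genes left of 0 in both ODN states. Ribosomal proteins stand at 0.14 without ODN and -0.35 with ODN.

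Over all genes the effects of IM156 in the 2 ODN states, which share no library, had a Pearson correlation of -0.066 and a Spearman correlation of -0.061 across 11857 genes, and 46.1% of genes (5466) had the same sign. Over the 9430 genes averaging 5 CPM or more, Pearson's r was 0.0052. Genes are not independent replicates, and these values are a description only. IM156 against control called 0 genes in edgeR (0%, 439 at an unadjusted p below 0.05), and ODN+IM156 against ODN called 8 (0.0675%, 1919 at an unadjusted p below 0.05). These 8, named after their values were seen, were Slc15a2 (-3.24, adjusted p = 0.000519), Klf4 (0.98, adjusted p = 0.0133), Fosb (1.16, adjusted p = 0.017), Phxr4 (0.88), Foxo4 (0.60), Armc9 (0.86), Sdhd (-0.64) and A930013F10Rik (0.52).

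The interaction called no gene in edgeR (0%), with 1453 genes (12.3%) at an unadjusted p below 0.05 and a smallest adjusted p of 0.131. DESeq2 called 151 of 8179 genes for the interaction (1.85%), voom called 130 (1.1%), and edgeR without the filter on low counts called 276 of 17399 (1.59%). Armc9, the gene of smallest interaction p, had 25.9, 24.9 and 24.4 CPM in IM156 against 37.9, 28.6 and 31.9 CPM in control, and 31.1, 26.1 and 26.3 CPM in ODN+IM156 against 12.1, 16.6 and 17.4 CPM in ODN. Its groups stood apart in both ODN states, in opposite directions, as did those of 141 genes in all. Its log2 fold changes were -0.39 and 0.86, and its main effect was 0.21 (adjusted p = 0.838).

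**Figure D5:**
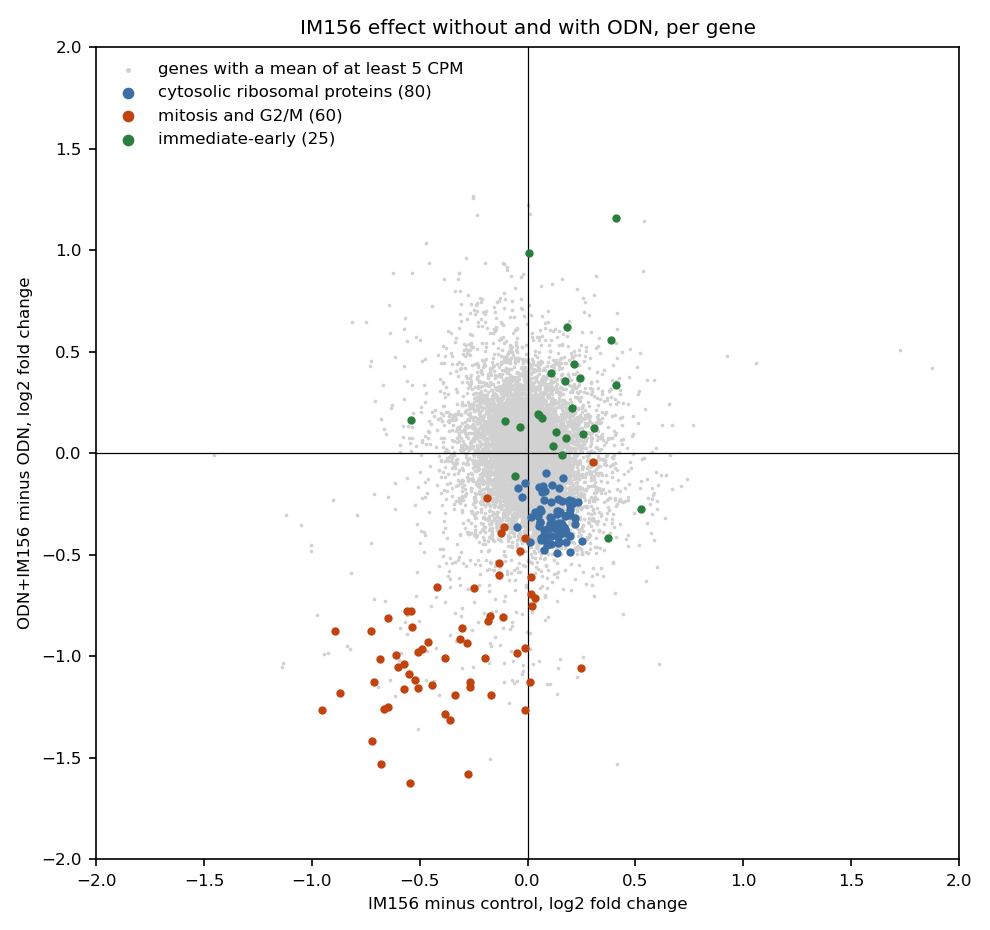
Log2 fold change of ODN+IM156 against ODN (vertical axis) by that of IM156 against control (horizontal axis) for the 9430 genes averaging 5 CPM or more, 2 of which lie outside the range shown. Pearson's r was 0.0052. Ribosomal protein, mitosis and immediate-early genes are coloured, and single genes are not labelled. Fos, Sla and Zfp36 have values above 0 on both axes. Slc15a2, at -1.08 without ODN and -3.24 with ODN, lies outside the range shown.

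B-cell identity genes had a median main effect of -0.0003 over 31 tested members. Of these, 1 was higher and 3 lower at an unadjusted p below 0.05, against 2.72% and 4.29% of all genes. Ms4a1, which encodes the surface protein CD20, had 1030, 1045 and 1123 CPM in IM156 against 1225, 1256 and 1171 CPM in control, and 1139, 1199 and 1146 CPM in ODN+IM156 against 1500, 1238 and 1318 CPM in ODN. The groups did not overlap in either ODN state, with a main effect of -0.21 (adjusted p = 0.561). Fcrla, an intracellular Fc receptor-like protein of B cells, also did not overlap, at -0.23 (adjusted p = 0.551). Genes of the BCL2 family and apoptosis had 18 of 21 members negative, 4 lower at an unadjusted p below 0.05 and none higher, against 51.4% negative and 4.29% lower over all genes. Their median was -0.09, and -0.046 without control replicate 1. Among them, the pro-apoptotic gene Bmf had a main effect of -0.55 (adjusted p = 0.645), or -0.36 without ODN replicate 1. Among follicular B-cell genes, Cd200, a surface glycoprotein, had a main effect of 0.37 (adjusted p = 0.532), and Foxo1, a transcription factor of resting B cells, 0.14 (adjusted p = 0.705).

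Some marker lists of other cell types had medians away from 0, and their part in the results above was not tested. All 15 tested erythroid genes were negative, 7 of them lower at an unadjusted p below 0.05, against 51.4% negative and 4.29% lower over all genes. Their median was -0.75, and -0.51 without IM156 replicate 3. The summed erythroid level was 156 to 678 CPM with IM156 and 222 to 984 CPM without. The globin gene Hba-a1 had 266, 218 and 45.6 CPM in IM156 against 345, 393 and 299.7 CPM in control, and 59.1, 23.3 and 57.0 CPM in ODN+IM156 against 40.4, 86.4 and 116 CPM in ODN, and it has a near-identical copy with which it may share reads. Its groups stood apart without ODN and overlapped with ODN, and IM156 replicate 3 was the lowest library without ODN (main effect -0.89, adjusted p = 0.595). All 5 tested neutrophil genes were negative, with a median of -0.58 and of -0.10 without ODN replicate 1. The summed level of the neutrophil list was 10.9 to 39.5 CPM with IM156 and 18.0 to 141 CPM without, and Ctsg, Stfa1 and Fcnb had no count in any library.

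Over all genes tested, 48.6% were positive and 51.4% negative, and 2.72% were higher and 4.29% lower at an unadjusted p below 0.05. Monocyte and macrophage genes had 17 of 21 members positive, 2 higher at an unadjusted p below 0.05 and a median of 0.43. Their summed level was 60.1 to 174 CPM with IM156 and 56.1 to 144 CPM without. The complement genes C1qb and C1qc had log2 fold changes of 0.67 and 0.72 (adjusted p-values 0.657 and 0.658). Dendritic cell genes had 13 of 18 members positive and a median of 0.17 (0.093 without IM156 replicate 1), and Clec9a, a receptor of cross-presenting dendritic cells, was at 0.99 (adjusted p = 0.561). The dendritic sum was 3303 to 3604 CPM with IM156 and 3189 to 4005 CPM without. NK-cell genes had 6 of 7 tested members negative, 2 lower at an unadjusted p below 0.05 and a median of -0.62. Their median was 0.07 for IM156 against control and -0.60 for ODN+IM156 against ODN. Of the 17 NK-cell genes listed, 11 averaged below 1 CPM. The sums of T-cell markers (319 to 375 CPM with IM156, 307 to 394 CPM without) and of NK-cell markers (25.8 to 51.1 CPM with IM156, 25.2 to 65.3 CPM without) overlapped, as did those of platelet markers (242 to 381 CPM with IM156, 224 to 475 CPM without). The T-cell genes Cd3e and Cd3d were at most 0.398 and 1.55 CPM, so that most of the T-cell sum came from other genes. The dendritic cell genes Xcr1 and Siglech were at most 29.8 and 1.09 CPM, far below the dendritic sum. Which cells the summed transcripts came from was not tested, so that a sum does not give the number of such cells.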

How the data were processed

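Transcripts were measured in 12 libraries of splenic B cells, 3 for each of 4 treatments. The deposited table gives raw counts per gene for each library. Per the submitters' processing notes, Bowtie2, bedtools and edgeR were used with GRCm38 (mm10). Not given in the sources used here are their versions, the annotation and whether counting used strand. A further 12 columns of per-sample values, which the authors normalized, were not used.

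The analysis used edgeR 4.0.16 (R 4.3.3). The filter on low counts was filterByExpr over the 4 groups, which kept 11857 of 23282 rows (5883 had no count and 79 shared 35 symbols and were kept apart). Libraries were scaled with TMM factors, and Rn45s, a row for ribosomal RNA, stayed in the main analysis. A quasi-likelihood model with terms for ODN and IM156 (9 residual degrees of freedom) gave the main effect, and a 4-group model (8 residual degrees of freedom) gave the effect within each ODN state and the interaction. Each two-sided p was adjusted by the Benjamini-Hochberg method across the genes tested, and a gene was called where the adjusted p was below 0.05. Total counts and the Rn45s share were compared with an exact permutation test that rearranged libraries within ODN states (400 arrangements, smallest p 0.005). DESeq2 1.42.0 and limma 3.58.1 (voom with quality weights) were run beside edgeR.

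The scripts were tested on simulated data. Named genes are the 12 of smallest p in each direction among those averaging 5 CPM or more and the 2 of smallest p in each list, apart from those said to be chosen after their values were seen and a few that are not reported here. The comparison, members and gene lists were chosen with earlier results of these data known. Total counts were about the same in all libraries, and replicates differed by more than counting error, so that the spread between libraries limits the precision. Coordinates are from GENCODE vM21 on GRCm38, and promoter sequences from RefSeq on GRCm38.p6. Alternatives were other scalings, filters, tools and models, a replicate block, and leaving out each library. The fit without ODN replicates 1 and 3 was chosen after seeing the data.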

Additional observations from a re-analysis of the deposited data

Results flagged for a closer look

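Among the 6 libraries without IM156, 4 values had 1 library far from the others by Dixon's criterion. ODN replicate 1 had 83.7 CPM of Tpx2, against 8.80 to 34.8 CPM in the other 5, and 73.9 CPM of Cdc20, against 10.4 to 31.2 CPM. Its summed neutrophil level was 141 CPM, against 18.0 to 44.0 CPM. ODN replicate 2 had 1.46% of its counts on Rn45s, against 7.41% to 9.63%. In all, 74 sets of 6 libraries were examined for 37 values. Chance marks about 1 in 20 where the libraries of a set are alike in treatment. Each set here pooled libraries with and without ODN, so that this rate need not hold. The median ODN effect on the mitosis list was 1.55 on the log2 scale, and what ODN adds to these flags was not tested. Tpx2 and Cdc20 were also examined because of their small p-values in the same libraries.

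In 13 lists the median of every IM156 library lay on one side of the mean of the control libraries, and that of every ODN+IM156 library on the other side of the mean of the ODN libraries. Single libraries with and without IM156 could still overlap under this criterion, and the difference was not tested for a list as a whole. The median interaction (the effect with ODN minus that without) was -0.47 for ribosomal proteins, -0.41 for platelet genes, -0.35 for complexes II to V, -0.29 for complex I, -0.21 for heat shock chaperones, -0.18 for the tricarboxylic acid cycle, -0.14 for NRF2 antioxidant genes, -0.12 for endoplasmic reticulum stress and secretion genes and -0.072 for age-associated B-cell genes. It was 0.57 for germinal centre genes, 0.53 for interferon-γ-induced genes, 0.34 for type I interferon genes and 0.24 for MHC class I genes.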

How the results depend on the processing

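For the main effect edgeR called 0 genes with RLE scaling, library totals, a stricter filter, robust dispersion, no Rn45s row, no ODN covariate and a replicate block. The calls were 10 with DESeq2 (5 higher, 5 lower), 3 with voom (3 higher, 0 lower), 225 without a low-count filter (49 higher, 176 lower), 2 for the mean of both ODN states in the 4-group model (1 higher, 1 lower), 6 in the libraries without ODN alone (3 higher, 3 lower) and 1 in those with ODN alone (0 higher, 1 lower). Leaving out each library in turn gave 0 to 5 calls (0 to 2 higher, 0 to 3 lower). Leaving out ODN replicate 2 gave 5, control replicate 3 gave 2 and IM156 replicate 3 gave 2. The interaction had 151 calls with DESeq2, 130 with voom, 276 without a filter and 0 to 260 over the leave-outs, with 260 without ODN replicate 3, 2 without ODN replicate 1 and 0 for the other 10. Without ODN replicates 1 and 3, a fit chosen after seeing the data, the main effect had 0 calls and the interaction 394. The cause of these shifts was not tested.

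The 24 genes named for their p (12 in each direction, averaging 5 CPM or more) kept their sign under all 26 alternatives. Of 2826 values for 109 named genes, 20 changed sign. In the libraries without ODN alone, the log2 fold changes were 0.25 for Rpl35, 0.18 for Uqcrh, 0.11 for Sdhd, 0.047 for Fh1 and for Plek, 0.039 for Ndufv2, 0.038 for Sec61g, 0.036 for Mrps9, 0.034 for H2-Oa, 0.017 for Bcl2a1d, 0.0094 for Prdx1, 0.0048 for Ldha, -0.0060 for H2-DMb2, -0.076 for Tgtp2 and -0.086 for Nlrc5. In those with ODN alone, Mybl1 was at 0.0013. Over the leave-outs, Kit ranged from -0.495 to 0.0765 (the high end without control replicate 3) and Hdc from -0.126 to 0.321. Hdc was at -0.018 without control replicate 3, -0.13 without ODN replicate 3 and -0.0012 without ODN+IM156 replicate 3.

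Replicate numbers did not pair libraries: 18 same-numbered pairs had correlations of -0.144 to 0.107, 1 of them over 0.1, and 2 of 12 libraries were closest to their own number. With the replicate block the main effect had 0 calls (738 genes at an unadjusted p below 0.05) and the interaction 0 calls (1408). With 3 libraries in a group, no vehicle and unknown numbers of animals, effects within 0.232 of 0 on the log2 scale lie inside the 95% interval of a typical gene.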
